A study of Mus musculus with 8 samples.

Results

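The suppressor of cytokine signalling (SOCS) family was followed in BMDMs, the macrophages that mouse bone marrow cells form in culture with M-CSF. All 8 members, Socs1 to Socs7 and Cish, were taken by gene symbol from the 21080 symbols measured, and all 8 passed the filter on low values that left 16284 genes for testing. RNA was sequenced from WT and Nudt21-cKO cells at 0 h and after stimulation, in 4 groups of 2 samples, and every sample pooled the BMDMs of 2 mice. The cKO mice were Nudt21 fl/fl LysM-Cre, in which Cre made in myeloid cells removes exons 2 to 3 of Nudt21, and the WT mice were sex-matched LysM-Cre littermates, so that both genotypes carry the Cre. All mice were C57BL/6, and their age at marrow collection is not given in the sources used here. Stimulated cells received IFNγ at 50 ng/ml overnight and then LPS at 50 ng/ml for 4 h. The labels name this stimulation for every sample, and the 0 h samples were taken as untreated from their titles and descriptions and from the methods of the study. The p-values measure the spread between these pooled samples, and an exact permutation of 2 samples against 2 cannot go below a two-sided p of 0.333.

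SOCS proteins are the negative feedback arm of cytokine signalling. A cytokine receptor activates JAK kinases, these phosphorylate STAT factors, and the STATs switch on SOCS genes whose products bind the receptor or the kinase through an SH2 domain. The SOCS box at the other end of the protein recruits elongins B and C and a cullin ligase, which marks bound proteins for degradation. In macrophages SOCS1 restrains IFNγ signalling and SOCS3 restrains signalling through gp130, the shared IL-6 receptor chain. Nudt21 encodes CFIm25, a subunit of cleavage factor I that binds UGUA in pre-mRNA and takes part in the choice of polyadenylation site.

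The values are read coverage per base of each gene, so levels of different genes can be set side by side on a per-length scale. Coverage averaged over an annotated length also depends on how much of the 3' untranslated region (3'UTR) an mRNA holds. The study reports shortened 3'UTRs for many genes in cKO cells, and the part of this in the values of the members was not tested. Summed coverage ran from 14950347 to 17954882 over the 8 samples. The median gene nevertheless lay lower at 4 h than at 0 h on the deposited scale, by 1.47 (log2) in WT and 1.20 in cKO, and at 4 h it was 0.36 higher in cKO than in WT. Each sample was therefore brought to the same median over tested genes, and levels below are scaled coverage unless stated otherwise. The values of the 2 times were deposited apart, and fold changes between times rest on this scaling unless another is named. Nudt21 itself was lower in cKO, with a log2 fold change of -2.13 at 0 h and -2.49 at 4 h (adjusted p = 0.00396 and 0.00178). All 7 macrophage markers were present in every sample, with a summed level of 76500 to 98900. Single markers differed with genotype in both directions, as at 0 h for Adgre1 (13020 and 15990 in WT, 8743 and 8384 in cKO), Fcgr1 (1644 and 1567, 834 and 784.7) and Cd68 (29440 and 28050, 43910 and 43050), and their part in the values of the members was not tested.

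The 3 promoter stretches below are shown because their genes are the members with the greatest rises on stimulation. RefSeq windows of 300 bases around the start (250 before, 50 after, GRCm38.p6) were found for 4 members, Cish, Socs1, Socs3 and Socs4. Both strands were searched for TTCNNNGAA, the spacing of STAT-binding GAS elements, and for GAAANNGAAA, the core of interferon-stimulated response elements. Capitals mark the matches, including a pair of GAAANNGAAA matches in Socs1 that share 4 bases.

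Cish, chr9:107296654-107296683, plus strand: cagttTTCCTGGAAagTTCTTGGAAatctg
Socs3, chr11:117969502-117969530, minus strand: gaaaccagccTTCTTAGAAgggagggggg
Socs1, chr16:10785597-10785626, minus strand: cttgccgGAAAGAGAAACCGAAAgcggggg

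The Cish stretch spans the RefSeq start and holds 2 matches to TTCNNNGAA, a number reached by 0.457% of 32851 windows, whereas 8.3% hold at least 1. The single Socs3 match begins 154 bases before the RefSeq start. The GENCODE models of Cish and Socs3 begin farther upstream than these starts. The Socs1 matches to GAAANNGAAA begin 83 and 77 bases before the start. At least 1 such match is present in 3.44% of windows and at least 2 in 0.225%. The Socs4 window holds neither sequence of letters. A match describes the sequence and is not evidence of binding.

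Unstimulated BMDMs carried mainly the members that are not classical STAT feedback genes. Socs6, whose product binds KIT and other receptor kinases, was the most abundant member, at 258 and 222.5 in WT and 385.7 and 377.7 in cKO. Socs7 stood at 113 and 137.8 in WT and 131.8 and 130.7 in cKO. Socs5 and Socs4, which act on EGF receptor signalling, followed at 106.4 and 114.8 and at 82.11 and 104.2 in WT. In the WT order Socs7 and Socs5 overlapped, and in cKO the neighbours Socs4 and Socs5 overlapped. The classical feedback genes were scarce at this time. Socs2, an inhibitor of growth hormone signalling, had 22.78 and 26.4 in WT and 11.4 and 15.81 in cKO. Socs3 had 21.17 and 21.62 in WT and 20.51 and 18.67 in cKO. Socs1 had 9.485 and 4.293 in WT against 2.674 and 1.87 in cKO. Cish, which encodes the STAT5 target CIS, was at 2.646 and 2.248 in WT and at 0.704 and 3.09 in cKO, and it overlapped with Socs1 in cKO.

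**Figure D1:**
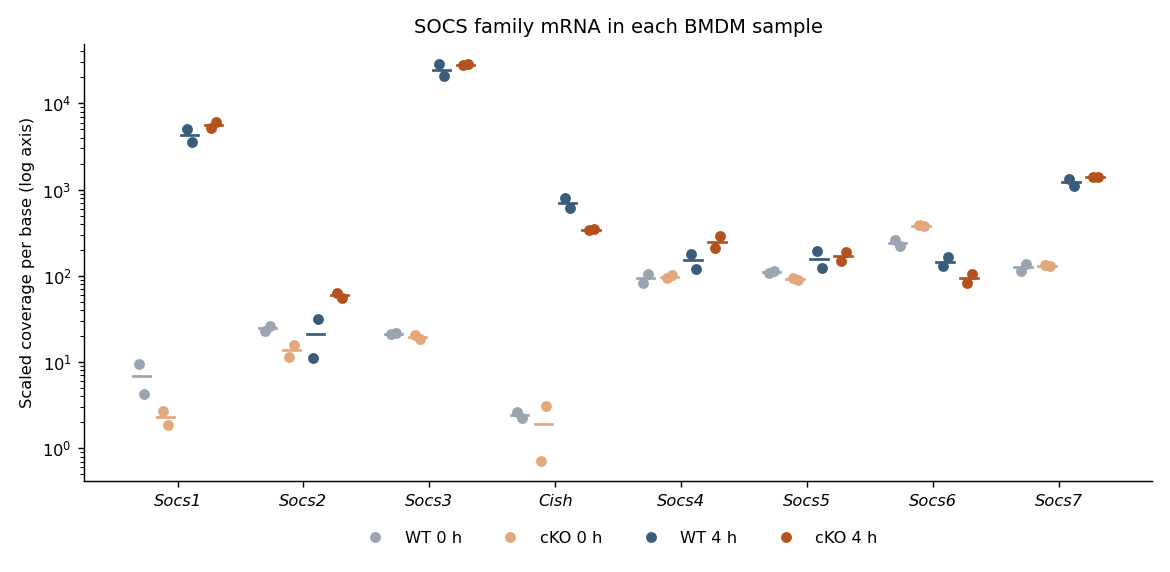
Scaled coverage per base (log axis) of the 8 members in each sample, with points for samples, short lines for group means and colours for the 4 groups. Socs1, Socs3, Cish and Socs7 at 4 h lie above every 0 h sample in both genotypes, and Socs6 lies below.

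Stimulation turned the family over. Socs3 rose to 28750 and 20550 in WT and to 27540 and 28330 in cKO, log2 fold changes of 10.14 (SE 0.18, adjusted p = 9.8e-06) and 10.47 (SE 0.18, adjusted p = 9.29e-06). It ranked 66 from the top of 16284 genes by fold change in WT and 69 in cKO. Socs1 rose to 5005 and 3545 in WT and to 5155 and 6105 in cKO, by 9.34 (SE 0.43, adjusted p = 6.24e-05) and 11.23 (SE 0.43, adjusted p = 4.15e-05). Its ranks were 91 and 42. The 0 h level of Socs1 was below 10 in every sample, so its fold change carries the uncertainty of that low level.

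Cish rose to 792.5 and 614.2 in WT and to 341.8 and 344.6 in cKO. The log2 fold changes were 8.10 (SE 0.64, adjusted p = 0.00033) and 7.74 (SE 0.64, adjusted p = 0.00043), ranks 173 and 215. As its 0 h level was low, the value in cKO ranged from 6.75 to 8.74 with a sample left out. Socs7, whose product binds insulin receptor substrates, rose to 1343 and 1104 in WT and to 1417 and 1411 in cKO. Its log2 fold changes were 3.29 (SE 0.15, adjusted p = 5.93e-05) and 3.43 (SE 0.15, adjusted p = 5.56e-05). These 4 genes rose under each of the 5 scalings tried, with the smallest log2 fold change, that of Socs7 in WT on the deposited scale, at 1.82.

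Socs6 moved the other way. It fell to 128.6 and 163.6 in WT and to 81.47 and 106.1 in cKO, so that its 4 h samples lay below all 0 h samples. The log2 fold changes were -0.72 (SE 0.19, adjusted p = 0.0236) in WT and -2.04 (SE 0.19, adjusted p = 0.000655) in cKO, and the fall kept its sign under all 5 scalings. The WT call was lost with WT_0h replicate 1 left out (-0.62, adjusted p = 0.103), with WT_0h replicate 2 left out (-0.83, adjusted p = 0.0505) and with WT_4h replicate 1 left out (-0.55, adjusted p = 0.0904). A replicate block in the limma fit also ended the WT call (adjusted p = 0.0757). In bulk RNA a fall like that of Socs6 cannot be told apart from a change in the number of cells that express the gene.

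For Socs4 and Socs5 the direction of the change with stimulation depended on how samples were scaled, and for Socs2 the calls did. At 4 h Socs4 had 181.2 and 120.2 in WT and 210.2 and 289.2 in cKO, and its log2 fold change in WT was 0.67 (SE 0.27, adjusted p = 0.0863) after median scaling but -0.79 (adjusted p = 0.0257) on the deposited scale. In cKO Socs4 rose by 1.34 (SE 0.27, adjusted p = 0.0101) after median scaling, against 0.14 (adjusted p = 0.618) as deposited. At 4 h Socs5 had 193.8 and 121.9 in WT and 147.4 and 189.7 in cKO, and its log2 fold change in WT was 0.48 (SE 0.26, adjusted p = 0.168) after median scaling but -0.99 (adjusted p = 0.00612) as deposited. In cKO Socs5 rose by 0.86 (SE 0.26, adjusted p = 0.0362) after median scaling, against -0.34 (adjusted p = 0.163) as deposited. Socs2 had 11.01 and 31.68 in WT, values that differ more, as a ratio, than those of any other member in this group, and 63.53 and 55.17 in cKO. Its log2 fold change in cKO was 2.13 (SE 0.51, adjusted p = 0.0179), and 0.94 (adjusted p = 0.211) as deposited. In WT it was -0.39 (SE 0.51, adjusted p = 0.545), -1.85 (adjusted p = 0.0369) as deposited, and 0.37 (adjusted p = 0.29) with WT_4h replicate 1 left out.

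Single samples also decided calls for these 3 members, and a replicate block ended the call of Socs5 in cKO. Without WT_4h replicate 2 the WT values passed for Socs2 (-1.15, adjusted p = 0.0212), Socs4 (0.97, adjusted p = 0.0392) and Socs5 (0.81, adjusted p = 0.025). In cKO the rise of Socs2 was no longer called without any one of the 4 cKO samples (adjusted p = 0.0532 to 0.0906). That of Socs4 was lost without cKO_0h replicate 3 (adjusted p = 0.0549) or cKO_4h replicate 4 (adjusted p = 0.0502). That of Socs5 was lost without either WT_0h sample or any one of the cKO samples (adjusted p = 0.0563 to 0.152).

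**Figure D2:**
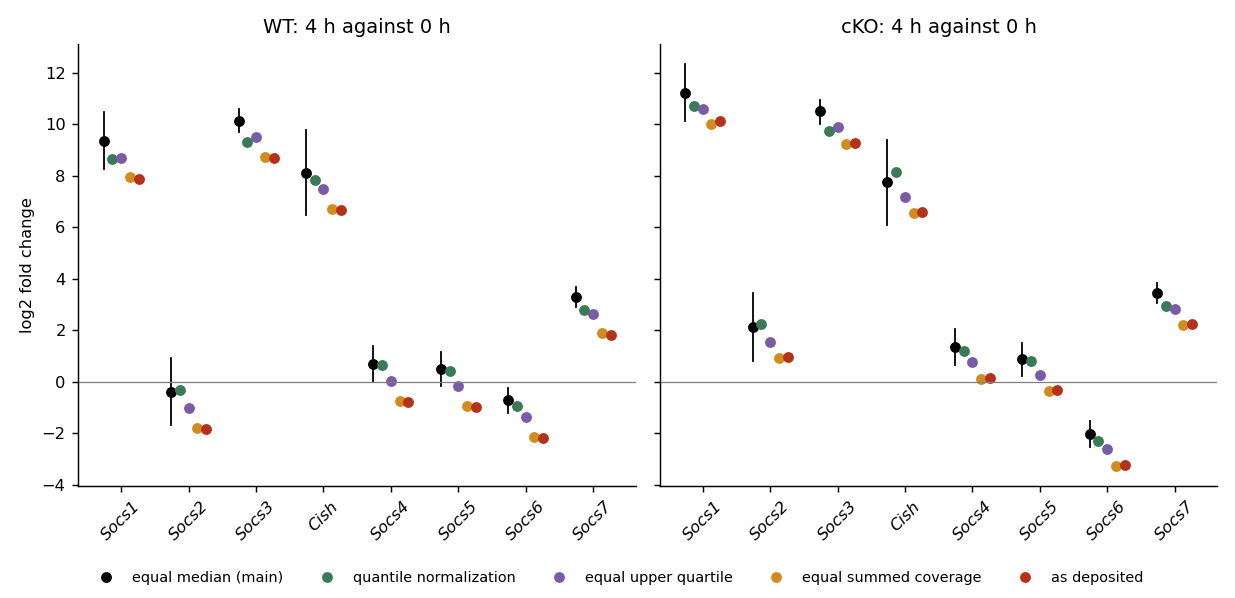
Log2 fold change of each member at 4 h against 0 h in WT and cKO under 5 ways of scaling samples (colours), with the 95% interval of the main fit as a black line. Socs1, Socs3, Cish and Socs7 stay above 0 and Socs6 below 0 under every scaling. Socs4 in WT and Socs5 in both WT and cKO lie on both sides.

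In counts, 4 members rose and 1 fell in WT, beside a background of 60.4% of tested genes called (36.9% higher and 23.5% lower), so the members were called about as often as genes at large. In cKO 7 rose and 1 fell, beside 58.2% of genes (35.1% higher, 23.0% lower). On the deposited scale the split was 4 higher and 4 lower in WT and 4 higher and 1 lower in cKO. The same scale gave 12.9% of genes higher and 58.2% lower in WT, and 14.5% and 54.5% in cKO. The median log2 fold change of the members was 1.98 in WT and 2.78 in cKO, and that of all tested genes was 0.15 and 0.12.

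Shares within the family do not depend on any scaling that multiplies a whole sample by 1 factor. Socs6 made up 41.9% and 35.1% of the summed coverage of the 8 members in WT at 0 h and 52.0% and 51.2% in cKO. At 4 h it held 0.233% to 0.623% over the 4 samples. Socs3 went from a share of 2.53% to 3.44% at 0 h to one of 76.9% to 79.0% at 4 h, and Socs1 from 0.253% to 1.54% to one of 13.5% to 16.6%. Socs7 held 17.7% to 21.7% at 0 h, next after Socs6, and 3.69% to 4.21% at 4 h, next after Socs3 and Socs1. At 4 h Cish held 2.18% and 2.34% in WT and 0.978% and 0.936% in cKO. Per 100 units of Socs1 coverage there were 15.8 and 17.3 of Cish in WT at 4 h, against 6.63 and 5.65 in cKO. This ratio was chosen after its values were seen and was not tested.

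**Figure D3:**
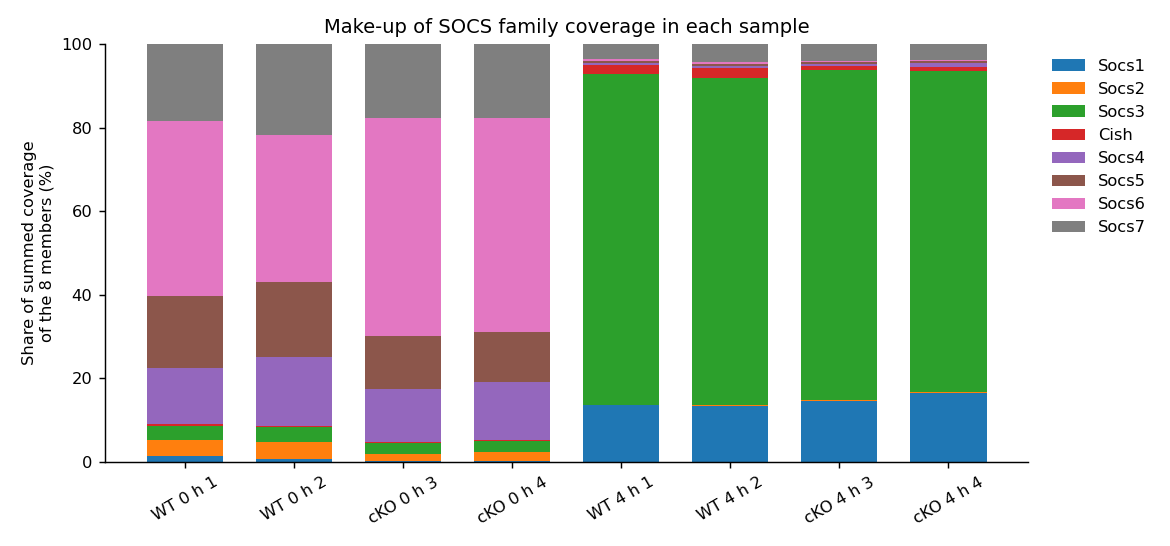
Share of the summed coverage of the 8 members (%) held by each member, 1 stacked bar for each sample, which is named by genotype, time and replicate. Socs6, Socs7, Socs5 and Socs4 fill most of each 0 h bar, and Socs3 and Socs1 fill most of each 4 h bar.

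The order of levels at 4 h was the same in both genotypes for its first 4 places, Socs3, Socs1, Socs7 and Cish, each apart from the next. In WT, Socs5, Socs4 and Socs6 overlapped below them and Socs2 was last. In cKO the order was Socs4, Socs5, Socs6 and Socs2, where the value sets of Socs4 and Socs5 did not overlap.

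The second question was whether loss of Nudt21 changed the members. With limma, 0 of 8 members passed an adjusted p of 0.05 between cKO and WT at 0 h, where 4.8% of tested genes did, and 2 had an unadjusted p under 0.05, beside 21.7% of genes. At 4 h again 0 of 8 passed, beside 16.4% of genes, and 3 had an unadjusted p under 0.05, beside 33.5%. By the rule of the study, a fold change above 1.5 with an unadjusted p under 0.05, 2 members counted at 0 h (12.3% of genes) and 3 at 4 h (20.7% of genes). The samples of the genotypes did not overlap for 5 members at 0 h (56.8% of genes) and 6 at 4 h (58.3%). None of these shares sets the members apart from genes at large.

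At 0 h those 2 were Socs1 and Socs6. Socs1 was lower in both cKO samples than in either WT sample, with a log2 fold change of -1.47 (95% interval -2.58 to -0.37, adjusted p = 0.138). The higher WT sample weighed on this value, which was -0.91 without WT_0h replicate 1 and -2.04 without WT_0h replicate 2. Socs6 was higher in both cKO samples, by 0.67 (interval 0.18 to 1.16, adjusted p = 0.131). For Socs2 the difference was -0.86 (interval -2.18 to 0.45). The intervals of Socs3 (-0.58 to 0.32), Socs4 (-0.62 to 0.77), Socs5 (-0.92 to 0.39) and Socs7 (-0.31 to 0.45) all include 0 and leave out a doubling or a halving. That of Cish, from -2.32 to 0.99, leaves both the level and the direction unsettled, and without cKO_0h replicate 3 its value was 0.33 (adjusted p = 0.576).

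At 4 h the 3 members past the rule of the study were Socs2, Socs4 and Socs6. Socs2 was higher in both cKO samples, with a log2 fold change of 1.66 (95% interval 0.34 to 2.97, adjusted p = 0.0899), which was 0.90 (adjusted p = 0.0989) without WT_4h replicate 1 and 2.42 (adjusted p = 0.0174) without WT_4h replicate 2. Socs4 was higher in both cKO samples, by 0.74 (interval 0.04 to 1.44, adjusted p = 0.133), a value that ranged from 0.44 to 1.04 with a sample left out. Socs6 was lower in both, by -0.64 (interval -1.13 to -0.15, adjusted p = 0.0832), although on the deposited scale the value was -0.28 and the groups overlapped. The strongly induced Socs3, Socs1 and Socs7 had an unadjusted p above 0.05. The log2 fold change of Socs3 was 0.20 (interval -0.25 to 0.65), that of Socs1 was 0.41 (interval -0.69 to 1.52) and that of Socs7 was 0.21 (interval -0.16 to 0.59). Cish was lower in both cKO samples than in either WT sample, by -1.02 (SE 0.64, interval -2.67 to 0.63, adjusted p = 0.338), and its sign was negative under all alternatives run at 4 h. On the deposited scale Socs3 (0.56, adjusted p = 0.0276), Socs4 (1.10, adjusted p = 0.0295) and Socs7 (0.58, adjusted p = 0.0321) were called higher in cKO at 4 h, beside 22.9% of genes in either direction and 19.6% in this one.

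**Figure D4:**
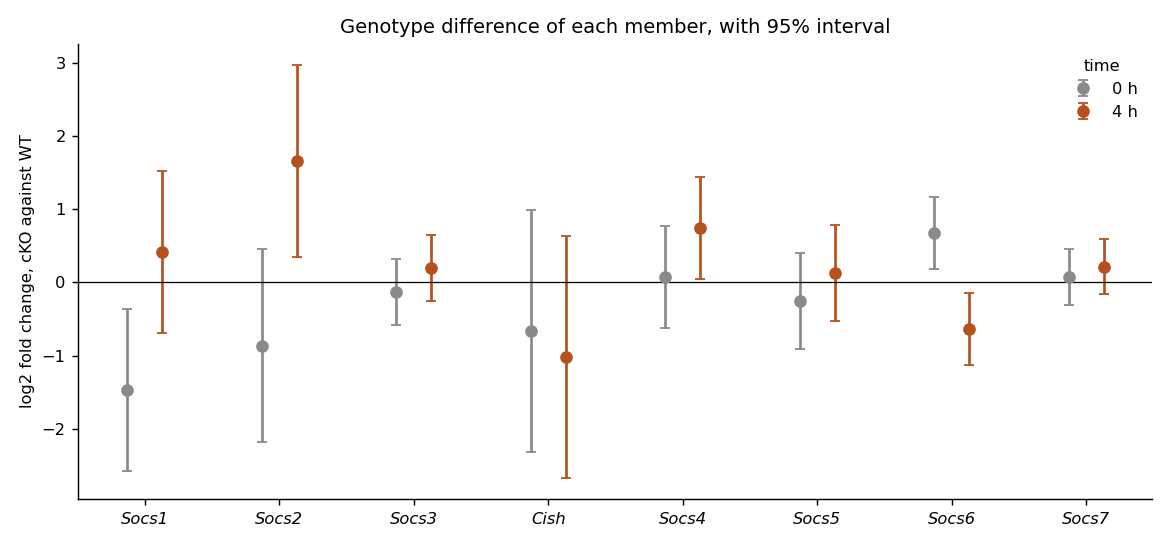
Genotype difference (log2, cKO minus WT) of each member at 0 h (grey) and 4 h (orange), with the 95% interval of the limma fit as the bar. The points of Socs1, Socs2, Socs3, Socs5 and Socs6 lie on opposite sides of 0 at the 2 times. None of the differences passed an adjusted p of 0.05.

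Whether the genotype difference itself changed with stimulation was tested as an interaction. For 3 members the genotypes were apart in opposite directions at the 2 times, which was so for 10.4% of tested genes (8.86% on the deposited scale). The change of the genotype effect from 0 h to 4 h was 1.89 for Socs1 (adjusted p = 0.172), 2.52 for Socs2 (adjusted p = 0.141) and -1.31 for Socs6 (adjusted p = 0.085). With a sample left out that of Socs2 ranged from 1.76 (adjusted p = 0.0862, without WT_4h replicate 1) to 3.28 (adjusted p = 0.0314, without WT_4h replicate 2), and the latter was the 1 of 8 such fits in which it passed. In all, 0 of 8 members passed, beside 2.27% of genes, and 3 had an unadjusted p under 0.05, beside 21.7% of genes.

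Markers of other cell types moved with genotype or time in part. The 4 markers of conventional dendritic cells summed to 2395 and 3225 in WT and to 1469 and 1482 in cKO at 4 h, nearly all of it Clec9a, against 6.28 to 7.57 at 0 h, while Flt3 stayed below 3 in every sample. Zbtb46 of the same list went the other way at 4 h, with 12.88 and 11.74 in WT and 22.89 and 34 in cKO. The 4 B cell markers summed to 82 and 92.74 in WT and to 39.83 and 46.48 in cKO at 0 h, nearly all Cd79b, with Ms4a1 at or near 0, and at 4 h to 18.29 to 20.52 in WT and 2.41 to 11.17 in cKO. The T cell list summed to at most 10.7 and that of mast cells and basophils to at most 16.1. At 4 h, where both were at their highest, the cKO ranges (0.794 to 3.41 and 2.68 to 5.75) lay below those of WT (5.38 to 10.7 and 13.2 to 16.1). The 6 markers of neutrophils and their precursors, led by S100a9 and S100a8, summed to 12130 to 16720 at 0 h and 23790 to 29820 at 4 h, with the cKO range above WT at 0 h and below it at 4 h. The fibroblast list reached 30.9 to 162 with overlapping ranges. The part of these cells in the values of the members was not tested.

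The pathway that the SOCS proteins act on was read from a list of 89 genes, of which 88 were tested. Stimulation raised 69 of them and lowered 7 in WT, and raised 66 and lowered 6 in cKO, after median scaling. Of all tested genes 36.9% rose and 23.5% fell in WT, and 35.1% rose and 23.0% fell in cKO. On the deposited scale both genotypes had 42 higher and 24 lower, beside 12.9% and 58.2% of all tested genes in WT and 14.5% and 54.5% in cKO. Over the list the median was 1.87 (log2) in WT and 1.58 in cKO. Of 16 cytokine genes 15 rose in each genotype, against 14 as deposited, and of 20 receptors 12 rose and 3 fell in WT and 9 rose and 3 fell in cKO. As deposited more receptors fell than rose, with 4 higher and 8 lower in WT and 5 and 9 in cKO. Among the kinases all 4 rose, led by Jak2 at 5.31 (SE 0.10) in WT and 4.92 in cKO, but on the deposited scale Jak1 fell in both genotypes (-0.61 and -0.59) and Tyk2 was not called. Of the 7 STAT genes 6 rose and Stat6 did not pass in either genotype, whereas as deposited Stat6 fell in both (-1.28 and -1.34) and 5 rose in WT and 6 in cKO. Stat5a, whose product drives Cish, rose by 4.52 in WT and 4.61 in cKO, and by over 3 in both on the deposited scale.

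The counts for the other brakes of the pathway depended on the scaling. Of 12 negative regulators outside the SOCS family 9 rose in WT, where 2 fell, and 9 rose in cKO, where 1 fell. As deposited 3 rose and 5 fell in WT, and 2 rose and 6 fell in cKO. Usp18, which holds down the type I interferon receptor, rose by 8.67 and 8.68, and Ptpn2, a phosphatase that acts on JAKs and STATs, by 3.80 and 3.48, and both rose as deposited too. All 7 partners of the SOCS box rose, among them Cul2 by 2.05 in WT and 1.38 in cKO and the elongin C gene Eloc by 1.88 and 1.37, whereas as deposited 2 rose and 2 fell in WT and 1 rose and 1 fell in cKO. The 13 STAT targets outside the family included 12 that rose in each genotype on both scales, with Gbp2, an interferon-induced GTPase, at 10.2 in both after median scaling.

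Between genotypes at 4 h, the calls after median scaling were 2 of 88 genes up and 11 down in cKO, beside 16.4% of all tested genes in either direction. The split was 15 and 0 on the deposited scale, where 19.6% of all tested genes were higher. Csf2, the gene of GM-CSF, was listed at 0 in all 0 h samples and at 4 h stood at 44.1 and 32.5 in WT and 229.9 and 299.8 in cKO. Its log2 fold change was 2.79 (adjusted p = 0.00402), called under all 5 scalings and with each sample left out in turn, but the 0 h samples, which cannot vary at 0, entered the spread behind these calls. In the fit of the 4 h samples alone, where no gene of the list was called, it did not pass (adjusted p = 0.0649). Sh2b3, the gene of the adaptor LNK that binds JAK2, was higher in cKO by 0.98 (SE 0.15, adjusted p = 0.0187) and was also called under all 5 scalings. The 11 lower genes were 7 of 20 receptors, Jak2, Cul2, Ptpn6 and Tirap. Of all 16284 tested genes 1449 were called lower after median scaling. Csf2rb and Csf2rb2, which encode signalling chains of the GM-CSF receptor family, were lower by -0.80 each (adjusted p = 0.0309 and 0.0263), and each was called under 2 of 5 scalings. Jak2 was lower by -0.68 (SE 0.10, adjusted p = 0.0168), called under 4 of 5 scalings. With each of the 8 samples left out in turn, the call held in 6 fits for Jak2, 4 for Sh2b3 and 2 each for Csf2rb and Csf2rb2. No STAT gene was called at 4 h after median scaling. Stat5a was at 5108 and 4563 in WT and at 5051 and 5195 in cKO, a log2 fold change of 0.09 (95% interval -0.16 to 0.33). On the deposited scale it was at 2613 and 2753 in WT and at 3651 and 3655 in cKO, and it was the 1 STAT gene called, by 0.45 (adjusted p = 0.0275).

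At 0 h the list gave 2 calls up and 5 down in cKO, beside 4.8% of all tested genes. On the deposited scale this split was 5 and 2, beside 5.08% of all tested genes. Ifngr1, the ligand-binding chain of the IFNγ receptor, was at 3464 and 3268 in WT and at 2055 and 1940 in cKO. Its log2 fold change was -0.75 (SE 0.09, adjusted p = 0.0217), called under 3 of 5 scalings. Cxcl10, an interferon-induced chemokine, was lower by -1.94 (SE 0.29, adjusted p = 0.0326) and was called under all 5 scalings, but in 1 alone of the 8 fits that left a sample out. Ebi3, which encodes a subunit of IL-27, was at 974.2 and 802.4 in WT and at 408.4 and 374.6 in cKO, lower by -1.18 (SE 0.18, adjusted p = 0.0345) and called under all 5 scalings. Csf3r, the G-CSF receptor gene, was lower by -0.53 (adjusted p = 0.0377), called under 3 of 5. Socs1, like Cxcl10 an interferon-induced gene, was lower at 0 h as given above without passing. Of the SOCS box partners, Cul5 was higher by 0.69 (adjusted p = 0.0326) and Rnf7 lower by -0.67 (adjusted p = 0.0319). These calls and those of Ifngr1, Ebi3 and Csf3r held in 2 of the 8 fits that left a sample out. Ifnb1, the gene of interferon-β, was the other gene called higher in cKO (adjusted p = 0.0207), listed at 0 in both WT samples and at 0.371 and 0.704 in cKO, so no fold is given. It was called under all 5 scalings and in 3 of the 8 fits that left a sample out, but not in the fit of the 0 h samples alone (adjusted p = 0.0904).

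**Figure D5:**
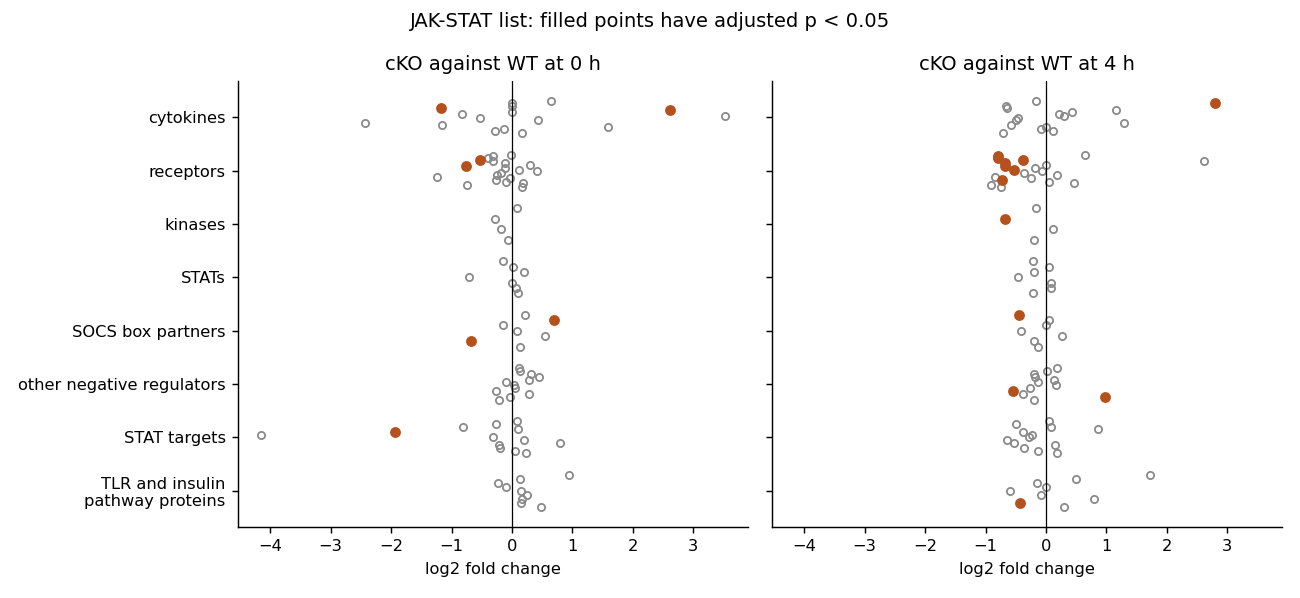
Genotype difference (log2, cKO minus WT) at 0 h and at 4 h for each tested gene of the JAK-STAT list (88 genes), in rows by role, with filled points for genes at an adjusted p under 0.05. The filled point farthest to the right at 4 h is Csf2, and the 7 filled receptors at 4 h lie left of 0.

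As Nudt21 acts on RNA, the annotated 3' ends of the members were also read (GENCODE M21, GRCm38, the transcript of each gene with the longest coding sequence). Socs3 (chr11:117966079-117970047, minus strand) has a 3'UTR of 1474 bases with 0 UGUA, whereas 99.5% of 862 genes with a 3'UTR within 10% of that length have at least 1. Socs1 (chr16:10782240-10785536, minus strand) has 4 UGUA in 1993 bases, and 94% of 831 genes of like length have more. Cish (chr9:107296026-107302784, plus strand) has 5 in 1087 bases, which is the median of genes of like length. At the other end Socs5 (chr17:87107679-87137839, plus strand) has 24 in 2595 bases, more than 92.1% of genes of like length, and Socs4 (chr14:47276931-47296102, plus strand) has 37 in 5182 bases. Socs6 on chromosome 18 has 28 in 4019 bases, Socs7 on chromosome 11 has 24 in 5184 bases and Socs2 on chromosome 10 has 8 in 1163 bases.

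AUUUA, the core of AU-rich elements that shorten mRNA life, was counted in the same way. Socs1 has 0, whereas 91.1% of genes of like length have at least 1. Socs4 has 17, more than 90.3% of genes of like length, Socs3 has 4 and Cish has 3. Overlapping matches on the sense strand were counted, and the counts say nothing of the polyadenylation site in use in these cells, which was not analysed here.

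Genes with a profile like that of a member were sought over the 8 samples by the root mean square difference of mean-centred log2 values, among 15130 genes. Nearest to Socs3 were Gm16685 (0.152), Cd40 (0.216) and Tgtp1 (0.224), and nearest to Socs1 were Cfb (0.392), Tgtp1 (0.416) and Ifit1 (0.499). Socs7 had close neighbours in Rnf31 (0.0893), Plagl2 (0.102) and Fscn1 (0.103). Cish was the member with the most distant first neighbour, Sdc4 at 0.497, followed by Ccl3 (0.578) and Il10 (0.588). Socs6 lay nearest to Kif20b (0.144), Socs4 to Gbe1 (0.125), Socs5 to Nol12 (0.0959) and Socs2 to Fignl2 (0.31). These distances are descriptions over samples that share 4 groups and 1 scaling.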

How the data were processed

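The authors aligned the reads to GRCm38 (mm10) with HISAT2 2.2.1, quantified RefSeq genes with StringTie 2.1.7 and deposited, for each time apart, 1 coverage signal per gene symbol and sample. The unit is not named and was read from the values: of 2894 values between 0 and 2 in genes with 1 annotated transcript, 33.6% were whole numbers of bases (within 0.01) after multiplication by transcript length, and 1.59% with a length 1 base longer. The deposited fold changes and p-values of the authors were not used, and 0 columns of per-sample values were left unused. A filter kept genes whose coverage averaged 0.5 or more over the 8 samples, samples were scaled to 1 median, and limma 3.58.1 (R 4.3.3) was fitted to log2(coverage + 0.1) over all groups, with Benjamini-Hochberg adjustment over 16284 genes. Fold changes are on this scale, which understates those of low genes. Called, rose and fell mean an adjusted p under 0.05. Intervals are 95% intervals of the moderated test. The fit was tested on simulated data. The named genes are the 8 members, Nudt21 and, for each part of the pathway list, up to 3 called genes of the greatest change per comparison, of which the text gives a part. A few others (Stat6, Jak1, Tyk2, and Stat5a between genotypes) were chosen after their values were seen. The family, and with it the members, and the lists and markers (macrophages, T and B cells, neutrophils, dendritic cells, fibroblasts, mast cells and basophils) were chosen with earlier results of these data known. The study states a depth per sample but the tables hold no reads per gene, so no counting interval was computed. Alternatives covered scaling, pseudocount, filter, variance estimate, samples in the fit, a replicate block and each sample left out.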

Additional observations from a re-analysis of the deposited data

Results flagged for a closer look

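Socs1, Socs2 and Socs6 had genotype differences of opposite direction at 0 h and 4 h, with both cKO samples on one side of both WT samples at 0 h and on the other side at 4 h. From 0 h to 4 h the genotype effect changed by 1.89 (log2) for Socs1, by 2.52 for Socs2 and by -1.31 for Socs6, and none passed the interaction test after adjustment over all genes (adjusted p = 0.172, 0.141 and 0.085 with limma). Such a pattern was present in 10.4% of tested genes. On the deposited scale Socs1 and Socs2 kept it, Socs6 did not, and Socs3 and Socs5 had it, beside 8.86% of genes.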

How the results depend on the processing

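The alternatives were run one at a time. The rises of Socs1, Socs3, Cish and Socs7 and the fall of Socs6 in cKO kept their direction and their call under all 11 settings and with each sample left out in turn. On the deposited scale and with equal summed coverage, 8 members were called in WT with stimulation and 5 in cKO, against 5 and 8 after median scaling, beside 71.1% and 70.2% of all genes in WT and 69.0% and 69.5% in cKO. There the log2 fold change in WT turned to -0.795 and -0.744 for Socs4 and to -0.991 and -0.941 for Socs5, and that of Socs5 in cKO to -0.344 and -0.383. With an equal upper quartile Socs5 in WT was at -0.176, and with quantile normalization the change of the genotype effect of Cish was 0.29. Between genotypes at 4 h, 3 members were called on the deposited scale, 1 with equal summed coverage and 2 with a variance trend, which also called 1 in the interaction. Of all tested genes 22.9%, 13.7% and 24.3% were called at 4 h in these 3 fits, and 7.03% in the interaction with the trend. No member was called at 0 h under any setting.

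Of the pathway list, 7 genes were called between genotypes at 0 h, 13 with a variance trend and 0 with only the samples compared. At 4 h 13 were called, 7 with equal summed coverage, 8 with quantile normalization, 22 with a variance trend and 0 with only the samples compared, a fit with fewer degrees of freedom. The shares of all genes moved likewise, to 9.79% with the trend and 0.903% with only the samples compared at 0 h, and at 4 h to 13.7%, 13.5%, 24.3% and 1.58% in the order given. The interaction called 1 gene, Csf2, which was at 0 in every 0 h sample, so that the value only repeats its 4 h difference. It called 2 on the deposited scale, with equal summed coverage, with an equal upper quartile and without a filter. Without variance moderation 3 were called, and with a variance trend 11. Of all genes 3.05%, 2.51%, 3.04%, 2.24%, 2.55% and 7.03% were called in these fits, in the order given.

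WT samples are numbered 1 and 2 and cKO samples 3 and 4 at each time. The sources do not say whether same-numbered samples of the 2 times came from the same pools of mice. Deviations of same-numbered samples correlated at 0.021 in WT and 0.0232 in cKO. These values cannot decide it, as noise in single samples can hide a shared pool, and the main fit assumed no pairing. With a replicate block, Socs6 in WT (adjusted p = 0.0757) and Socs5 in cKO (0.087) were no longer called. In the interaction the fit with this block called 0 pathway genes, beside 0.184% of all tested genes.

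With 1 sample left out, and the lone sample of its group assumed to vary like the others, the members called ranged from 4 to 8 in WT and 5 to 8 in cKO with stimulation, and from 0 to 1 between genotypes at 4 h and in the interaction. That 1 was Socs2, without WT_4h replicate 2. The pathway counts ranged from 0 to 6 at 0 h, from 1 to 14 at 4 h and from 0 to 2 in the interaction. The share of all tested genes called also moved from fit to fit. These ranges of counts alone therefore do not set the members or the list apart from genes at large. Among values that changed sign, the ranges at 0 h were -0.0965 to 0.247 for Socs4, -0.0706 to 0.216 for Socs7 and -1.66 to 0.329 for Cish. At 4 h they were -0.0418 to 0.443 for Socs3 and -0.213 to 0.455 for Socs5. With stimulation in WT Socs2 ranged from -1.15 to 0.368. In the interaction Socs7 ranged from -0.000767 to 0.285 and Cish from -1.35 to 0.636. The cause of these changes was not tested. With 2 samples per group, small differences between genotypes could not be told from the spread of samples.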
